A study of Mus musculus with 5 samples.

Results

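The 2 contact maps whose genotype names hold BorCTCF were compared with the other 3 mutant maps of the series, to find where every value of one set lay above every value of the other. These are 5 of the 6 maps in all. The sixth is a wild-type map that belongs to no sample; its values are printed beside the others as the authors' value and enter neither set. All 5 mutant maps are capture Hi-C of limb buds from E10.5 mouse embryos, with 1 library per genotype. Every mutant genotype is labelled homozygous. By its name the wild-type map is also E10.5 limb bud capture Hi-C. Its embryo source and number of libraries are not given in the sources used here. The BorCTCF set holds intraTAD2-2xBorCTCF and intraTAD2-1xBorCTCF (2xBorCTCF and 1xBorCTCF below), whose embryos were made by tetraploid aggregation. The mating set holds intraTAD2, intraTAD3 and intraTAD2-i4CTCF (i4CTCF below), whose embryos came from mating. By name, 4 of the 5 genotypes carry intraTAD2, and intraTAD3 is the exception. The sources used here do not give what each allele changes in the DNA, how many embryos went into a library, or how many stem cell clones were used. Allele and embryo source go together in these 5 libraries, so in every difference below they cannot be told apart.

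Shh encodes a secreted signal that patterns the limb from its thumb side to its little finger side. Its limb enhancer, the ZRS, lies inside the neighbouring gene Lmbr1, far from Shh but within the same topologically associating domain, a stretch of chromatin whose parts touch each other more often than they touch their surroundings. CTCF is a DNA-binding zinc finger protein that stops cohesin as it extrudes chromatin loops, and it is found at many domain borders. In tetraploid aggregation, embryonic stem cells are combined with tetraploid host embryos, so that the embryo itself derives mainly from the stem cells while the host supplies extraembryonic tissue. Capture Hi-C enriches ligated pairs of DNA fragments from a chosen stretch of the genome, and the number of pairs joining a pair of places is read as their contact. A limb bud holds many cell types, of which few express Shh, and a contact value is an average over all of them.

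The maps cover chromosome 5 from 27,480,001 to 30,270,000 (mm10) in bins of 5 kb, and held 1121373 contacts in 2xBorCTCF, 1975131 in 1xBorCTCF, 1256568 in i4CTCF, 2848921 in intraTAD3 and 2942790 in intraTAD2. The depths of the sets overlap. All values below are distance-normalised: a value of 1 is the average contact of all bin pairs at that distance in the same map. A difference between the sets is the mean log2 value of the BorCTCF maps minus that of the mating maps. Since each genotype had 1 library, no test between genotypes was possible, and the 95% intervals cover counting error only. The sets are called separate where they do not overlap, and separate beyond counting error where the interval of each of the 6 ratios between a BorCTCF map and a mating map lies on the same side of 0. The closest ratio is that of the 2 maps, 1 from each set, that lie nearest to each other. The 5 maps can be split into sets of 2 and 3 in 10 ways. Were the maps interchangeable, a share of about 0.1 of places would be separate in either direction.

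The differences given first lay around Shh, where several were separate beyond counting error. In the BorCTCF maps Shh had less contact with Rnf32 and Lmbr1 at the far end of its domain. It had more contact with a stretch of 20 kb that lies between them, 231 kb from Shh. The part of the domain next to Shh had more contact with the flank that holds En2. The 20 kb stretch and the limit of that part were set after their values had been seen. Mean contact within the domain overlapped between the sets in both distance classes up to 250 kb apart, as did that across the border inside Lmbr1.

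The contact of Shh (28,456,840 to 28,467,101) with Lmbr1 (29,229,802 to 29,378,421), which lie 763 kb apart, was 6.04 in intraTAD2, 6.38 in intraTAD3 and 5.81 in i4CTCF, against 5.38 in 2xBorCTCF and 4.78 in 1xBorCTCF. Both BorCTCF maps were lower than all mating maps, and wild type, at 5.63, lay between the sets. The difference was -0.26 on the log2 scale. The SD among the 3 mating maps was 0.07, which is a spread among 3 genotypes and not among replicates. The 2 BorCTCF maps lay 0.17 apart. The closest ratio, 2xBorCTCF over i4CTCF, was -0.11 (interval -0.21 to -0.013). These windows held 1806 to 6271 contacts. With 2 libraries against 3, an exact permutation test cannot give a two-sided p below 0.2, which is what any pair of separate sets gives, so it adds nothing to the separation itself. With the gene bodies alone, without the bin on either side that the windows otherwise include, the sets stayed separate but not beyond counting error, with a difference of -0.25. The Lmbr1 window includes a bin at 29,315,001 that held 0.091 times the average contacts per bin in intraTAD3 and 1.01 to 1.09 times in the other mutant maps. Without it and 4 other bins with uneven contacts, the difference was -0.26 and still separate beyond counting error.

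Rnf32, a RING finger gene that adjoins Lmbr1, lies 726 kb from Shh (29,192,745 to 29,227,635). Its contact with Shh was 4.35 in intraTAD2, 4.54 in intraTAD3 and 4.11 in i4CTCF, against 3.45 in 2xBorCTCF and 3.06 in 1xBorCTCF. The BorCTCF maps were again the lowest, below the wild-type value of 3.70. The difference was -0.42, with an SD of 0.07 among the mating maps, a distance of 0.17 between the BorCTCF maps and a closest ratio of -0.25 (-0.43 to -0.076). Widening the windows to 2 bins on either side left the sets separate, but not beyond counting error, at a difference of -0.32. The windows of Rnf32 and Lmbr1 overlap and share some bins, so the results for these genes are not independent.

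Across the border on the other side of Shh lies Rbm33 (28,316,836 to 28,419,244). Its contact with Lmbr1 was 2.88 in intraTAD2, 2.97 in intraTAD3 and 2.76 in i4CTCF, against 2.59 in 2xBorCTCF and 2.44 in 1xBorCTCF, with 2.59 in wild type. This pair too was lower in both BorCTCF maps, by a difference of -0.19 and a closest ratio of -0.092 (-0.16 to -0.023). These were the only listed gene pairs that were separate beyond counting error. Among all 78 pairs of the 13 listed genes, 16 were lower in the BorCTCF maps (20.5%) and 10 higher (12.8%), with 3 (3.85%) and 0 (0%) beyond counting error. Shh itself had 3 pairs lower and 3 higher among 12, with a median difference of 0.03 against 0.01 over all pairs.

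The 3 genes that had more contact with Shh in both BorCTCF maps lie on the En2 side, and their values were within counting error for at least 1 pair of maps. Paxip1, which acts in DNA repair and lies 665 kb from Shh, had a contact of 0.726 in intraTAD2, 0.831 in intraTAD3 and 0.936 in i4CTCF, against 1.21 in 2xBorCTCF and 1.06 in 1xBorCTCF, with 0.797 in wild type. For Paxip1 the difference was 0.46, and 5 of the 6 ratios were beyond counting error. Rbm33, next to Shh, had 0.488, 0.492 and 0.491 in intraTAD2, intraTAD3 and i4CTCF, against 0.536 in 2xBorCTCF and 0.518 in 1xBorCTCF. The serotonin receptor gene Htr5a had 0.730 to 0.826 in the mating maps and 0.850 and 0.866 in the BorCTCF maps, a difference of 0.12 that turned to -0.052 with the gene bodies alone.

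On the Mnx1 side, Nom1 was the gene with less contact with Shh in both BorCTCF maps. Its values were 2.46 in intraTAD2, 2.76 in intraTAD3 and 2.76 in i4CTCF, against 2.32 in 2xBorCTCF and 2.31 in 1xBorCTCF. Here 2 of the 6 ratios were beyond counting error. The sets overlapped for the other 6 genes: Insig1, En2, Cnpy1, Mnx1, Ube3c and Dnajb6. The homeobox genes En2 and Mnx1 differed within the BorCTCF set more than between the sets. For En2 the contact was 1.44 in 2xBorCTCF and 2.21 in 1xBorCTCF, against 1.37 to 2.24 in the mating maps. For Mnx1 it was 3.04 and 4.56, against 4.23 to 5.30.

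**Figure D1:**
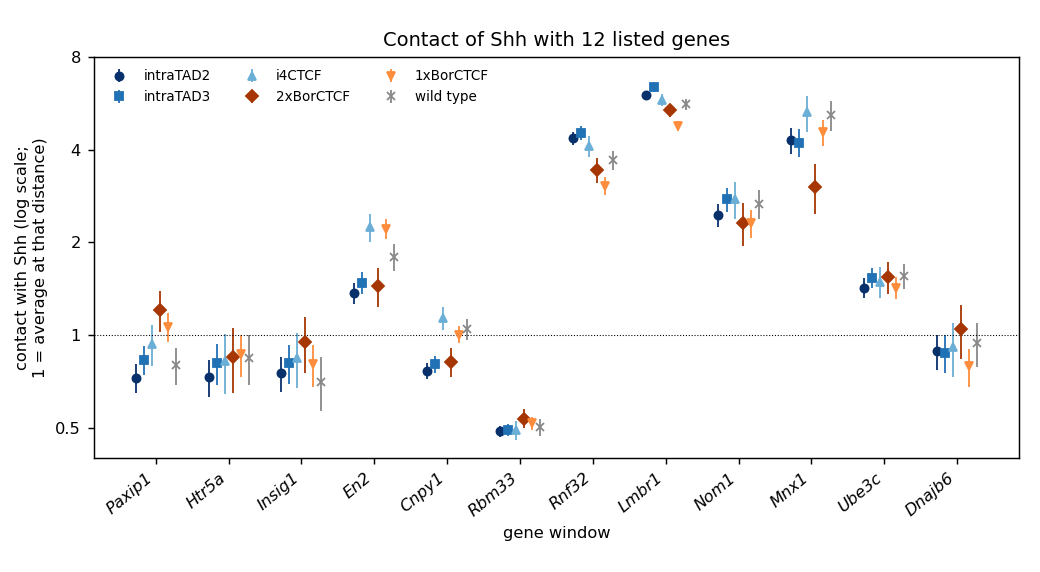
Distance-normalised contact of the Shh window with each of 12 listed genes (log scale, in order along the chromosome) in the 3 mating maps (blue), the 2 BorCTCF maps (orange) and wild type (grey), with bars for the 95% interval of counting error. For Rnf32 and Lmbr1 both BorCTCF maps lie below all mating maps, at 3.06 to 3.45 against 4.11 to 4.54 and at 4.78 to 5.38 against 5.81 to 6.38.

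Lmbr1 was the other main viewpoint. Its contact with Cnpy1, which neighbours En2, was 1.72 in intraTAD2, 1.71 in intraTAD3 and 1.77 in i4CTCF, against 1.55 in 2xBorCTCF and 1.63 in 1xBorCTCF, with 4 of 6 ratios beyond counting error. With Dnajb6, a chaperone gene on the Mnx1 side, it was 0.716 to 0.747 in the mating maps and 0.763 and 0.781 in the BorCTCF maps, with 2 of 6 ratios beyond it. Lmbr1 thus had 3 pairs lower (Shh, Rbm33 and Cnpy1) and 1 higher (Dnajb6) of 12, shares near the 20.5% and 12.8% over all gene pairs. The sets overlapped for the other 8: Paxip1, Htr5a, Insig1, En2, Rnf32, Nom1, Mnx1 and Ube3c.

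In 50 kb steps along the chromosome, the contacts of Shh were not evenly shifted. Of the 54 stretches that do not span a domain border, 10 were higher in the BorCTCF maps (18.5%) and 12 lower (22.2%). Of these, 1 (1.85%) and 2 (3.7%) were beyond counting error. The stretch at 29,340,001, which spans the border inside Lmbr1, was lower too, with 3 of 6 ratios beyond counting error. On the En2 side, 7 of 19 stretches were higher and 0 lower. On the Mnx1 side, 0 of 18 were higher and 6 lower, and none of these 13 was beyond counting error. Inside the domain 3 of 17 were higher and 6 lower, of which 1 and 2 were beyond counting error. The 2 lower ones begin at 29,190,001 over Rnf32 and the nearer end of Lmbr1, and at 29,240,001 within Lmbr1. In the second, contact was 6.66 in intraTAD2, 7.21 in intraTAD3 and 6.47 in i4CTCF, against 5.59 in 2xBorCTCF and 5.23 in 1xBorCTCF. The stretch at 29,290,001 had the most contact with Shh in every map. It was lower too, with 4 of 6 ratios beyond counting error. Its values were 7.76 in intraTAD2, 8.18 in intraTAD3 and 7.65 in i4CTCF, against 7.16 in 2xBorCTCF and 6.39 in 1xBorCTCF. Seen from Lmbr1, 14 of 51 stretches were higher (27.5%) and 15 lower (29.4%), with 1 (1.96%) and 4 (7.84%) beyond counting error. Inside the domain 2 of 15 were higher and 7 lower, with 3 of the lower ones beyond counting error. On the Mnx1 side 10 of 17 were higher and 0 lower, and on the En2 side 2 of 19 were higher and 8 lower, with 1 beyond counting error in either case.

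**Figure D2:**
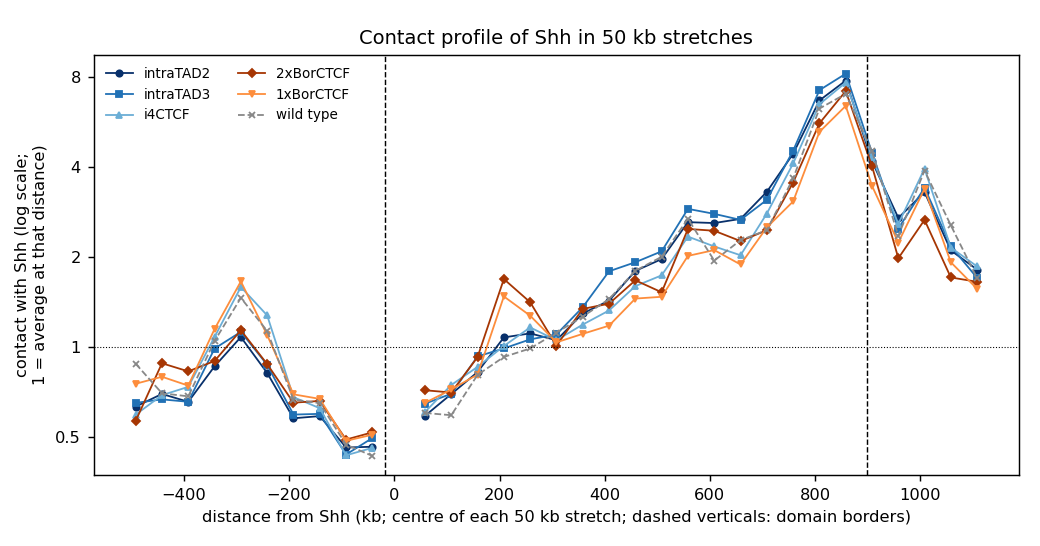
Contact of the Shh window with successive 50 kb stretches (log scale), against the distance of each stretch's centre from Shh in kb, with dashed vertical lines at the domain borders, and 1 line per map. The BorCTCF maps (orange) are above the mating maps (blue) about 208 kb from Shh, where they reach 1.69 and 1.48 against 0.99 to 1.08, and below them at 758 and 808 kb.

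The higher stretch begins at 28,640,001. Contact of Shh with it was 1.08 in intraTAD2, 0.99 in intraTAD3 and 1.01 in i4CTCF, against 1.69 in 2xBorCTCF and 1.48 in 1xBorCTCF, with 0.927 in wild type. Among single 5 kb bins around it, the values peaked at 28,685,001, where they were 1.37, 1.07 and 1.29 in intraTAD2, intraTAD3 and i4CTCF, 3.25 in 2xBorCTCF and 2.61 in 1xBorCTCF. Wild type had 1.15 there, so the 2 BorCTCF maps were the highest of the 6 maps. Smaller rises from 28,670,001 to 28,685,001 were seen in intraTAD2, from 1.075 to 1.37, and in i4CTCF, from 1.094 to 1.29. i4CTCF had a higher value, 1.63, at 28,705,001, where the sets overlapped.

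A window of 20 kb from 28,675,001 to 28,695,000 was set around that peak, after its values had been seen, so its size is a description. Contact of Shh with this 20 kb window was 1.31 in intraTAD2, 1.06 in intraTAD3 and 1.08 in i4CTCF, against 2.37 in 2xBorCTCF and 2.11 in 1xBorCTCF, and 1.09 in wild type. Both BorCTCF maps were above every mating map and wild type. The difference was 0.96 and the closest ratio 0.69 (0.56 to 0.81), or 1.61-fold. The values rest on 295 to 1323 contacts. 2xBorCTCF was 0.17 above 1xBorCTCF (0.022 to 0.32). None of the 13 listed genes lies in this window, which falls within the annotated span of the long non-coding RNA 9530036O11Rik. Before balancing, the bin at 28,685,001 took 3.65, 1.92 and 2.36 times the average number of contacts per bin in intraTAD2, intraTAD3 and i4CTCF, and 2.03 and 3.30 times in 2xBorCTCF and 1xBorCTCF, so the sets overlapped in its total. The neighbouring bin at 28,690,001 had more contacts per bin in both BorCTCF maps, at 1.65 and 1.63 times the average against 1.23 to 1.34.

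**Figure D3:**
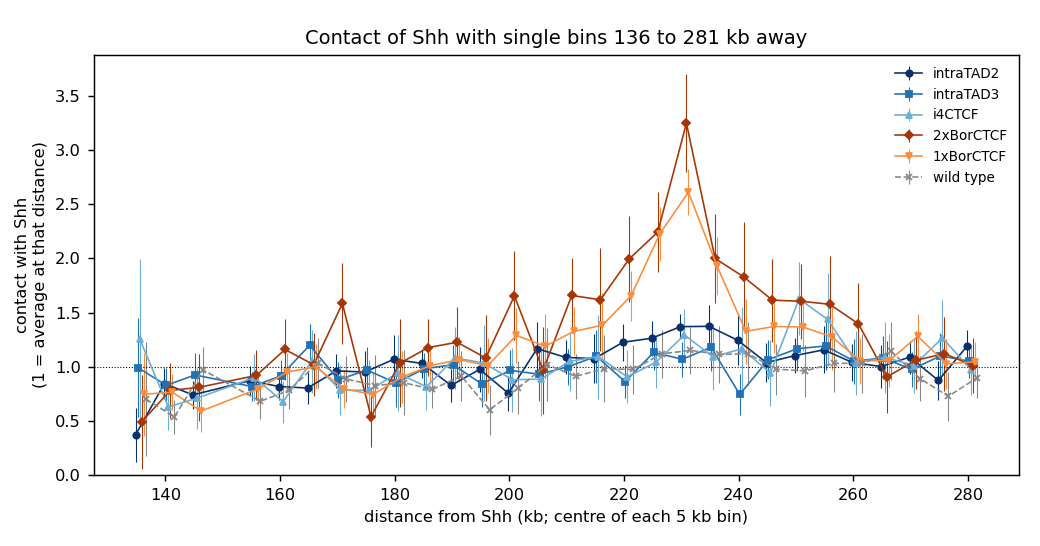
Contact of the Shh window with single 5 kb bins (linear scale), against the distance of the bin's centre from Shh in kb, for each map, with bars for the 95% interval of counting error. At 231 kb the 2 BorCTCF maps reach 3.25 and 2.61, while the 3 mating maps and wild type lie between 1.07 and 1.37.

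Seen from the same 20 kb window, 53 stretches of 50 kb do not span a domain border. Of these, 16 were higher in the BorCTCF maps (30.2%) and 7 lower (13.2%), with 4 (7.55%) and 0 (0%) beyond counting error. On the En2 side 12 of 19 were higher, 3 of them beyond counting error, and 0 were lower. Inside the domain 3 of 16 were higher and 7 lower, and on the Mnx1 side 1 of 18 was higher and 0 lower. The stretch inside the domain that was beyond counting error begins at 28,440,001 and holds Shh, whose contact had placed the window. Its contact with Rbm33 was 0.566 in intraTAD2, 0.526 in intraTAD3 and 0.605 in i4CTCF, against 0.721 in 2xBorCTCF and 0.728 in 1xBorCTCF, with a closest ratio of 0.25 (0.081 to 0.42). Beside Shh, whose contact had placed the window, Rbm33 was the only listed gene for which the window was separate beyond counting error. With Lmbr1 it was 1.79 to 1.97 in the mating maps and 2.01 and 2.11 in the BorCTCF maps, with 5 of 6 ratios beyond counting error. Of the other 10 genes, Paxip1, Insig1 and En2 had higher values in both BorCTCF maps, and for 7 the sets overlapped. The En2 values of 0.632 in 2xBorCTCF and 0.631 in intraTAD2 nearly touched.

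Averages over the whole domain gave the same order of maps. Its borders were taken from the wild-type map as the insulation minima at 28,440,001, between Rbm33 and Shh, and at 29,355,001, inside Lmbr1, which are 915 kb apart. Mean contact inside the domain was 1.47 in intraTAD2, 1.5 in intraTAD3 and 1.46 in i4CTCF, against 1.39 in 2xBorCTCF and 1.36 in 1xBorCTCF, with 1.42 in wild type. The difference was -0.11, separate beyond counting error. It was not present at every distance. For the mean over bin pairs up to 100 kb apart the sets overlapped (0.891 to 0.918 against 0.900 and 0.905). The sets also overlapped for pairs over 100 and up to 250 kb apart (1.1 to 1.13 against 1.09 and 1.12).

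For bin pairs over 250 and up to 500 kb apart, the mating maps had 1.44, 1.47 and 1.44 and the BorCTCF maps 1.36 and 1.33. For those over 500 kb apart they had 2.61, 2.67 and 2.53 against 2.31 and 2.22. In the corner of the domain, where the first 100 kb meet the last 100 kb, contact was 5.20 in intraTAD2, 5.48 in intraTAD3 and 5.20 in i4CTCF, against 4.59 in 2xBorCTCF and 4.27 in 1xBorCTCF, with 4.83 in wild type. The corner difference was -0.26 and the closest ratio -0.18 (-0.26 to -0.096). All 3 of these averages were separate beyond counting error, with wild type between the sets.

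**Figure D4:**
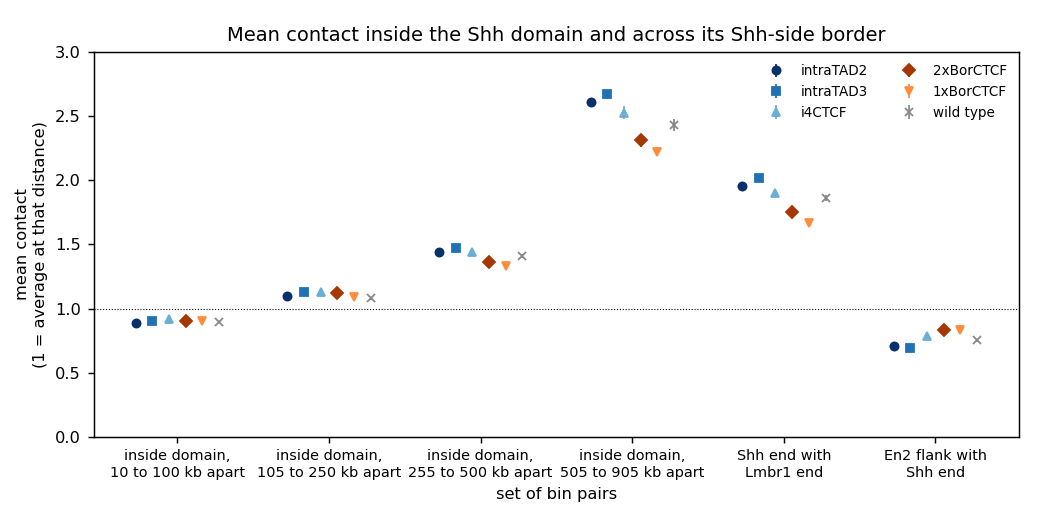
Mean distance-normalised contact (linear scale) of bin pairs inside the Shh domain in 4 distance classes, between the Shh end and the Lmbr1 end of the domain, and between the En2 flank and the Shh end, for the 3 mating maps (blue), the 2 BorCTCF maps (orange) and wild type (grey). Over 500 kb apart the BorCTCF maps lie at 2.22 and 2.31 against 2.53 to 2.67, while the classes up to 250 kb apart overlap. The limit between the Shh end and the Lmbr1 end was set after the values had been seen.

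Insulation, the log2 mean contact across a position in windows of 100 kb less the map's own mean, was next set out along the region; lower values mean a stronger border. At the border between Rbm33 and Shh it was -1.01 in intraTAD2, -0.96 in intraTAD3 and -0.94 in i4CTCF, against -0.76 in 2xBorCTCF and -0.90 in 1xBorCTCF, with -1.01 in wild type. Both BorCTCF maps were less insulated there by a difference of 0.14, with 4 of 6 ratios beyond counting error. The size rested on 2xBorCTCF: without it the difference was 0.066, and without 1xBorCTCF 0.21. At the border inside Lmbr1 the sets overlapped, at -0.76, -0.76 and -0.73 against -0.84 and -0.74.

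Over all 519 positions, 53 were higher (10.2%) and 69 lower (13.3%) in the BorCTCF maps. Interchangeable maps would give a share of about 0.1 in either direction. Of all positions, 0 (0%) were higher and 2 (0.385%) lower beyond counting error. Those 2 adjoin, at 28,710,001 and 28,715,001, which is 275 kb from the Shh-side border and just beyond the 20 kb window. Insulation at 28,715,001 was 0.010 in intraTAD2, 0.10 in intraTAD3 and 0.011 in i4CTCF, against -0.043 in 2xBorCTCF and -0.10 in 1xBorCTCF, with 0.038 in wild type. The dip is small beside the domain borders, with a closest ratio of -0.053 (-0.095 to -0.012). The annotated gene at this place is again 9530036O11Rik, whose span runs from Shh to just past the dip.

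The domain was divided at this dip, after its values had been seen, into a Shh end of 275 kb and a Lmbr1 end of 640 kb. Contact between the ends was 1.956 in intraTAD2, 2.01 in intraTAD3 and 1.90 in i4CTCF, against 1.76 in 2xBorCTCF and 1.67 in 1xBorCTCF, a difference of -0.19. Contact of the Shh end with the En2 flank was 0.706, 0.691 and 0.782 in the mating maps in that order, against 0.831 in 2xBorCTCF and 0.836 in 1xBorCTCF, a difference of 0.20. Both were separate beyond counting error. The dip was chosen for lower contact across it in the BorCTCF maps, so lower contact between the ends was partly built in. Within the Shh end the mating maps had 0.949, 0.950 and 0.977 against 1.03 in 2xBorCTCF and 0.977 in 1xBorCTCF, and within the Lmbr1 end the sets overlapped at 1.13 to 1.16 against 1.13 and 1.14.

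Over all bin pairs of the region the sets were close to evenly separate in either direction. Of 150370 pairs of 5 kb bins, 15232 were higher in the BorCTCF maps (10.1%) and 14327 lower (9.53%). Both shares are near the 0.1 that interchangeable maps would give. Single pairs rest on few contacts, with medians of 2 to 5 per map. Inside the Shh domain 8.85% of bin pairs were higher and 14.6% lower, and between the En2 flank and the domain 12.3% were higher and 8.61% lower. The imbalance inside the domain was thus toward lower values, and that across its Shh-side border toward higher ones.

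Tiles of 50 kb by 50 kb with at least 30 contacts in every mutant map showed this more clearly. Of 1526 tiles, 267 were higher (17.5%) and 196 lower (12.8%), with 10 (0.655%) and 11 (0.721%) beyond counting error. Tiles of 25 kb gave 15.3% higher and 13.3% lower, and tiles of 100 kb 24.4% and 16%, with 2.46% and 3.94% beyond counting error. Inside the Shh domain 14 of 171 tiles were higher and 61 lower, which is 35.7%. The share of lower tiles there was 20.4% up to 250 kb apart, 45.6% from 300 to 550 kb, and 76.2% (16 of 21) from 600 to 900 kb. Between the En2 flank and the domain 113 of 342 tiles were higher, which is 33.0%, and 31 lower. With the Shh end of the domain 48 of 114 were higher and 0 lower, and between the ends of the domain 47 of 72 were lower and 2 higher. These last counts rest on the split at the dip, set after its values had been seen, so they are a description.

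**Figure D5:**
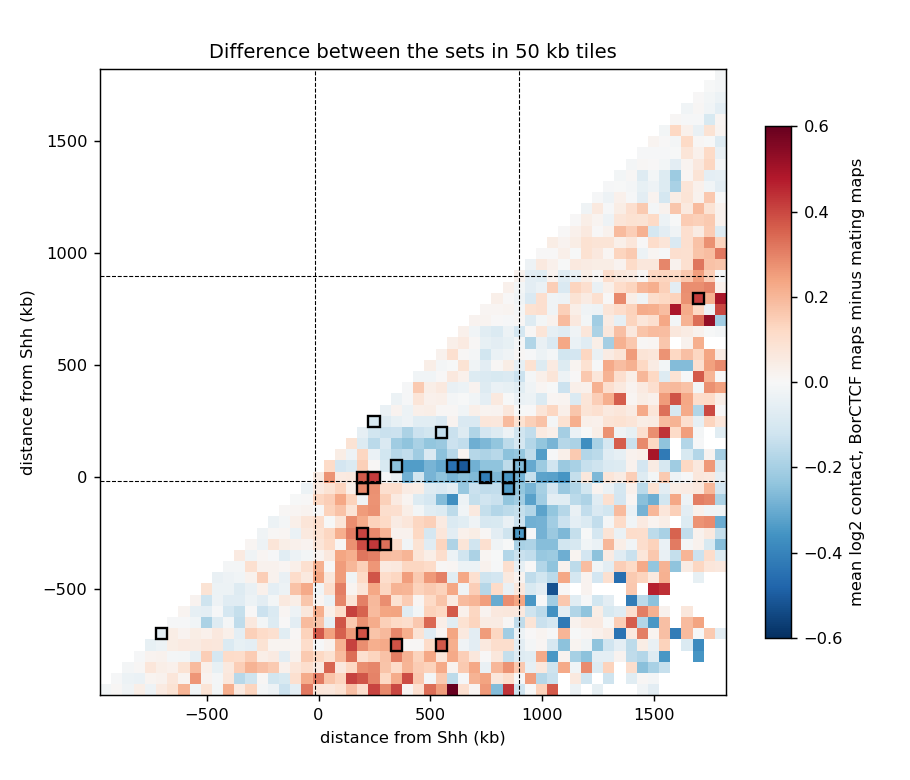
Difference between the sets (mean log2 contact of the BorCTCF maps minus that of the mating maps) for 1526 tiles of 50 kb, with both axes giving the distance from Shh in kb, dashed lines at the domain borders and black frames around the 10 higher and 11 lower tiles that are separate beyond counting error. Lower tiles (blue) are most frequent between the ends of the domain (47 of 72), and higher tiles (red) in the square between the En2 flank and the part of the domain next to Shh (48 of 114). The limit between the ends was set after the values had been seen.

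Joined where they adjoin, the tiles that were separate beyond counting error made 7 regions of higher and 9 of lower contact in the BorCTCF maps. The higher region with most tiles, 3, joins 28,380,001 to 28,480,000, which holds Shh and the end of Rbm33, with 28,630,001 to 28,730,000, the surroundings of the 20 kb window. Contact there was 0.880, 0.884 and 0.927 in intraTAD2, intraTAD3 and i4CTCF, against 1.22 in 2xBorCTCF and 1.1 in 1xBorCTCF. The next ones join stretches that overlap these surroundings to En2 (28,130,001 to 28,180,000 with 28,680,001 to 28,780,000) and to Cnpy1 (28,180,001 to 28,230,000 with 28,630,001 to 28,680,000). The stretch joined to En2 reaches beyond the surroundings. For En2 the mating maps had 0.50, 0.459 and 0.453 and the BorCTCF maps 0.609 and 0.616. For Cnpy1 they had 0.524, 0.492 and 0.510 against 0.662 and 0.686. The last of the 5 named, ranked 4 and 5, join Dpp6 (27,680,001 to 27,730,000) to stretches of the domain without a protein-coding gene that begin at 28,780,001 and 28,980,001, with differences of 0.38 and 0.37.

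Of the lower regions, 2 hold 2 tiles each and the other 7 hold 1. The first, with more contacts of these 2, joins the same stretch over Rbm33 and Shh with 29,280,001 to 29,330,000 in Lmbr1. Contact there was 6.00 in intraTAD2, 5.99 in intraTAD3 and 5.93 in i4CTCF, against 4.72 in 2xBorCTCF and 4.69 in 1xBorCTCF, with 5.16 in wild type. The second joins 28,480,001 to 28,530,000, just beyond Shh, with 29,030,001 to 29,130,000, at 2.51, 2.62 and 2.35 against 1.78 and 1.80. The others named by the rule are the tile at 28,680,001 with itself (0.835 to 0.861 against 0.787 and 0.795), the tile at 27,730,001 over Paxip1 with itself (1.19 to 1.21 against 1.15 in both), and the pair of 28,630,001 and 28,980,001 (1.52 to 1.54 against 1.38 and 1.39). The tile at 28,680,001 holds the insulation dip and part of the 20 kb window. In wild type, the value lay within or beyond the mating set in 7 of the 10 higher and 5 of the 11 lower tiles, between the sets in 3 and 6, and on the BorCTCF side in 0.

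Mean contact within and between the flanks differed less than mean contact inside the domain. Single gene pairs between the flanks did not all differ less. Of 24 pairs of an En2-side gene with a Mnx1-side gene, 8 were lower in the BorCTCF maps and 1 higher, with 0 beyond counting error. The median difference of these pairs was -0.10. Htr5a with Mnx1 differed by -0.48, on 19 to 70 contacts. For En2 with Mnx1, at -0.43, the sets overlapped. Mean contact inside the Mnx1 flank was 1.1, 1.09 and 1.09 in the mating maps against 1.12 in both BorCTCF maps, a difference of 0.04 that was separate beyond counting error. That call was lost when values were divided by the median at each distance or taken without balancing. Inside the En2 flank the sets overlapped (0.966 to 0.982 against 0.981 and 0.982), as they did across the border inside Lmbr1 within 500 kb (0.586 to 0.591 against 0.585 and 0.600). Contact between the flanks was 1.1 to 1.11 in the mating maps and 1.06 and 1.09 in the BorCTCF maps, a difference of -0.048 that reversed to 0.041 with the median at each distance.

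Distance normalisation removes how contacts fall off with distance, so shares of the balanced signal by distance were set side by side. Of the balanced signal at 10 kb or more, pairs between 500 and 1000 kb apart held 12.31% in intraTAD2, 11.99% in intraTAD3 and 12.12% in i4CTCF. They held 12.41% in 2xBorCTCF and 12.98% in 1xBorCTCF. Both BorCTCF maps were higher, with 5 of 6 ratios beyond counting error, as was wild type at 12.94%. The share of signal from pairs over 2000 kb apart was also higher, at 0.765% and 0.852% against 0.678% to 0.729%. In the 5 other distance classes the sets overlapped.

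Balancing gives every bin the same total, so contacts per bin before balancing were set out apart, as multiples of the average bin. Of 548 bins, 119 were higher in the BorCTCF maps (21.7%) and 118 lower (21.5%). The widest lower gap was at 27,970,001, on the En2 side between Htr5a and Insig1, with 0.483, 0.422 and 0.551 in intraTAD2, intraTAD3 and i4CTCF against 0.183 in 2xBorCTCF and 0.217 in 1xBorCTCF. Wild type was lower still at 0.162. The bins at 27,940,001, 27,965,001 and 27,955,001 lie close by and were lower as well, so 4 of the 5 named lower bins fall within 35 kb, and the other is at 30,075,001. After the bin at 28,690,001 in the 20 kb window, the named higher bins were 29,375,001, 29,245,001 and 29,255,001 in Lmbr1 and 29,510,001. At 29,245,001 the mating maps had 1.02, 1.04 and 1.06 and the BorCTCF maps 1.25 and 1.23, against 0.701 in wild type. Lmbr1 thus held bins with more contacts per bin in the BorCTCF maps while its balanced contact with Shh was lower. Without balancing, the sets were also separate beyond counting error for Shh with Lmbr1 (a difference of -0.25), Shh with Rnf32 (-0.42) and Shh with the 20 kb window (1.09).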

How the data were processed

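Per the labels' protocols, limb buds were fixed with formaldehyde, cut with DpnII, religated, sonicated and captured with SureSelect probes. The submitters' processing notes name Bowtie2 2.2.6. The authors deposited a balanced signal for every 5 kb bin pair of each map, with a mapping quality of 30 or more and Knight-Ruiz balancing per the file names. Probe design and handling of duplicates: not given in the sources used here. The mm10 build was checked by moving gene positions in 201 steps, of which 0 kb gave the most contact for 3 gene pairs. There is 1 column of values without a sample, that of wild type.

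Whole contacts were recovered from the balanced values (100% whole within 0.01, except 6 bin pairs of intraTAD3). Of 558 bins, 548 had at least 25% of the median number of partners in every map and were kept. Values were divided by the mean at the same distance in their map. Intervals are weighted Poisson intervals. Gene windows include 1 bin on either side, and averages start at 10 kb. Scripts were tested on simulated maps and used Python 3.11.15, numpy 2.4.6 and scipy 1.17.1. Gene positions are from RefSeq.

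The members, genes and windows were chosen with earlier results of these data known. Named were all pairs of Shh and Lmbr1 with 13 listed genes, other gene pairs separate beyond counting error, the 5 regions with most tiles in each direction, the domain borders, insulation positions beyond counting error, and the 5 bins with the widest gap in contacts per bin. Alternatives were the median at each distance, values without balancing, maps thinned to the smallest, other windows and tiles, and leaving out each library. Contact maps hold no expression, so the tissue was not checked against markers.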

Additional observations from a re-analysis of the deposited data

How the results depend on the processing

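No paired analysis was possible because each genotype has 1 library. Contacts of Shh with the 20 kb window, of Rbm33 with Lmbr1, the corner of the domain, and bin pairs of the domain over 500 kb apart kept their direction and were separate beyond counting error under every alternative run. Leaving out a library could not have undone these calls, since the ratios that remain are unchanged, so those runs add no support. The 20 kb window was placed on its peak in these same data, so its staying separate is no added support. With the median at each distance, 5 gene pairs were higher and 5 lower beyond counting error, the difference inside the domain was -0.13, in the corner -0.33, and between the flanks 0.041 (reversed). Without balancing, 21 gene pairs were higher (1 beyond counting error), 25 tiles higher and 48 lower beyond counting error, and the differences inside the domain and in the corner were -0.062 and -0.18. Thinned to the smallest map, 4 tiles were higher and 7 lower beyond counting error. With 0 bins on either side of genes, Htr5a with Shh reversed to -0.052. With 2 bins, 4 gene pairs were higher and Shh with Rnf32 stood at -0.32. Tiles of 25 kb gave 622 higher (4 beyond counting error) and 542 lower, and tiles of 100 kb 99 and 65. Insulation at the border inside Lmbr1 differed by 0.012 with windows of 50 kb and 0.0030 with 200 kb. Leaving out 5 bins whose contacts were uneven between maps, chosen after seeing the data, left all values as they were within the limits used.

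Leaving out 1 library at a time leaves fewer values to keep apart, so counts can only grow. Higher and lower bin pairs then numbered 22459 to 41006 and 21959 to 36491, tiles 333 to 527 and 246 to 415 (13 to 35 and 12 to 47 beyond counting error), and gene pairs 12 to 27 and 17 to 28 (0 to 3 and 3 to 9 beyond counting error). Counts of tiles grew by over 1.5 times without i4CTCF, 2xBorCTCF or 1xBorCTCF, with 424, 492 and 527 higher and 299, 350 and 415 lower. The difference in insulation at the border next to Shh ranged from 0.066 (without 2xBorCTCF) to 0.21 (without 1xBorCTCF), and that at the border inside Lmbr1 from -0.088 to 0.0042. The log2 difference in the share of balanced signal between 500 and 1000 kb ranged from 0.032 to 0.096.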
